A study of Rattus norvegicus with 15 samples.

Results

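The transcripts described here are 13006 of the 22050 rat genes counted in the series, those with at least 50 counts on average over vehicle footprint libraries 1 to 3 and homogenate RNA-seq libraries 1 to 3. For each of them the footprints of ribosomes that pelleted with the granule fraction were compared with the RNA of the whole homogenate. Whole brains of Sprague Dawley rats were taken on postnatal day 5, and 5 brains were pooled for a homogenate. Vehicle footprint libraries were made without cycloheximide or added salt, by digesting the resuspended gradient pellet with RNase I and keeping the monosomes released from it. RNA-seq libraries came from homogenate labelled as control, before any centrifugation. Libraries 1 to 3 of each kind are called the deep set here, and libraries 4 and 5 of each kind the shallow set. Cycloheximide footprint libraries 1 to 3, from brains homogenised with that inhibitor of elongation, and salt footprint libraries 1 and 2, from pellets incubated in raised NaCl, entered no test and are given only beside some results.

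Ribosome profiling sequences the short stretch of mRNA that a ribosome shields from nuclease, so that footprints divided by RNA give the ribosome load of a transcript. In the developing brain a large share of ribosomes sits in RNA granules, dense clusters of ribosomes, mRNA and RNA-binding proteins that neurons carry into their processes with translation paused. Such clusters sediment to the bottom of a sucrose gradient, together with other very heavy polysomes. A ratio of pellet footprints to homogenate RNA therefore reads how much of a transcript is under ribosomes of the pellet, and not its translation in the brain as a whole.

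Gene identity is given by Ensembl ID. None of the IDs could be paired with a symbol here, so no gene family, pathway or cell type marker could be looked up, and the labelled tissue could not be checked against its markers. In whole brain, fewer cells of a type and less RNA per cell cannot be told apart. Counts were not divided by transcript length, so the abundance classes below rank genes by reads and not by molecules.

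Footprint libraries 1 to 3 held 34584329, 37130831 and 53645452 counts, and RNA-seq libraries 1 to 3 held 19223750, 26032359 and 26015058. The shallow set held 1894992 and 2808669 footprint counts and 2533616 and 2265538 RNA-seq counts. The 13006 genes took 98.9% to 99.9% of the counts of each of these 10 libraries. Even numbers made up 88.4% to 97.7% of nonzero values in the RNA-seq libraries and 49.0% to 50.1% in the vehicle footprint libraries. Whether the RNA-seq counts hold both mates of a read pair is not given in the sources used here. With RNA-seq counts halved, as that case would ask, 12405 genes would reach an average of 50 counts, and the tests below called 7774 genes in the deep set, 442 in the shallow set and 369 between the sets, against 7869, 441 and 400. The labels do not say whether libraries of a kind came from separate pools of brains, so the p-values measure the spread between libraries, which may be technical.

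In the deep set 12979 of the 13006 transcripts could be tested, and calls were made in both directions in similar number. Footprints were higher than RNA for 3362 transcripts and lower for 3502, while 6115 did not pass an adjusted p of 0.05 in edgeR's quasi-likelihood test. The ratios are relative, since each kind of library was scaled by trimmed mean of M-values (TMM), which sets the bulk of genes near a log2 ratio of 0. Over all 15335 genes tested, 51.3% were called, 22.0% with more and 29.3% with fewer footprints. Scaling by total counts alone moved the median of all tested genes from -0.18 to -0.75 on the log2 scale, and the share of calls with more footprints from 42.9% to 14.6%. Every count of direction below is therefore a statement about a transcript relative to the bulk of transcripts.

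The median ratio among the 13006 transcripts was -0.02, the middle 50% lay between -0.79 and 0.61, and 5% of the transcripts lay below -2.23 while the highest 5% began at 1.39. Changes of moderate size were common on both sides, with 1620 called transcripts at least 2-fold higher and 2486 at least 2-fold lower. At 4-fold or more there were 120 with more footprints and 819 with fewer. At 8-fold or more 9 had more footprints and 363 had fewer. Of these 363, 161 had no more than 3 counts in each deep-set footprint library, so that they passed the filter on low counts through their RNA and their fitted ratio depends on the small count added in the fit. Without them 658 were at least 4-fold and 202 at least 8-fold lower.

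The ratio climbed with abundance. Transcripts were put in 5 classes by their mean CPM (counts scaled to a library total of 1000000) over the 6 libraries of the deep set. Below 5 CPM, 7.06% of tested transcripts had more footprints than RNA and 34.4% had fewer. From 5 to 20 CPM these shares were 12.6% and 37.0%, and from 20 to 100 CPM they were 28.4% and 25.1%. From 100 to 500 CPM, 53.5% had more and 10.9% fewer. At 500 CPM and above, 71.5% had more and 2.34% fewer, which is 183 and 6 of 256 transcripts. The median log2 ratio went from -0.62 through -0.37, 0.07 and 0.59 to 1.06 over the same classes. With total-count scaling these medians were all lower, and that of the 20 to 100 CPM class turned negative, but the order of the classes was the same.

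**Figure D1:**
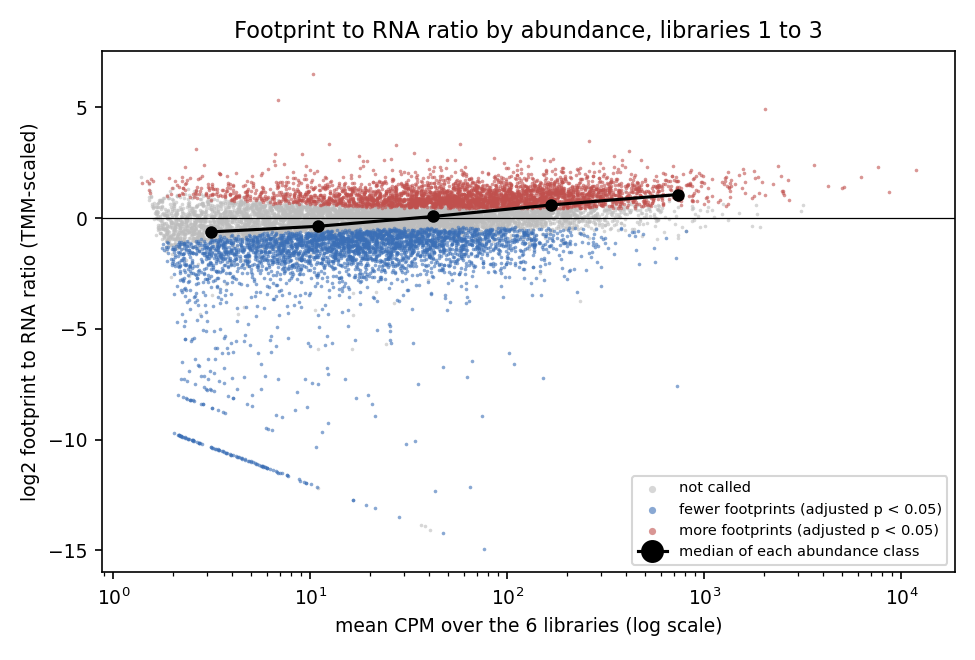
Footprint to RNA ratio of each transcript on a log2 scale in the deep set (vertical axis) against mean CPM over its 6 libraries (horizontal log axis), with colour giving the call at an adjusted p of 0.05. Called transcripts with more footprints crowd at high CPM, and the transcripts furthest below 0 lie at low and middle CPM.

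Because the footprint counts enter both the class and the ratio, the classes were drawn again from RNA-seq libraries 4 and 5, which share no library with the ratio of the deep set. The rise was smaller but of the same order, with medians of -0.42, -0.35, 0.07, 0.47 and 0.66 from the lowest to the highest class. Of the 225 transcripts at 500 CPM or more in that RNA, 51.1% had more footprints in the deep set and 14.2% fewer. In the class below 5 CPM the shares were 10.2% and 30.7%. Classes drawn this way still include the transcripts almost without footprints.

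In the shallow set, whose libraries had no part in the deep-set classes, the medians were -0.50, -0.38, -0.11, 0.24 and 0.56 in the same order. The median below 5 CPM rests on only 658 of the 1842 transcripts of that class, those that passed the shallow-set filter on low counts. Here 11526 of the 13006 transcripts could be tested, and 187 had more and 236 had fewer footprints by edgeR's quasi-likelihood test at an adjusted p of 0.05. Of all 11642 genes tested there, 3.79% were called, 1.61% with more and 2.18% with fewer footprints. None of 658 transcripts tested below 5 CPM was called with more footprints, against 56 of 256, or 21.9%, at 500 CPM and above. Scaling by total counts lowered the share of shallow-set calls with more footprints from 42.4% to 14.8%.

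**Figure D2:**
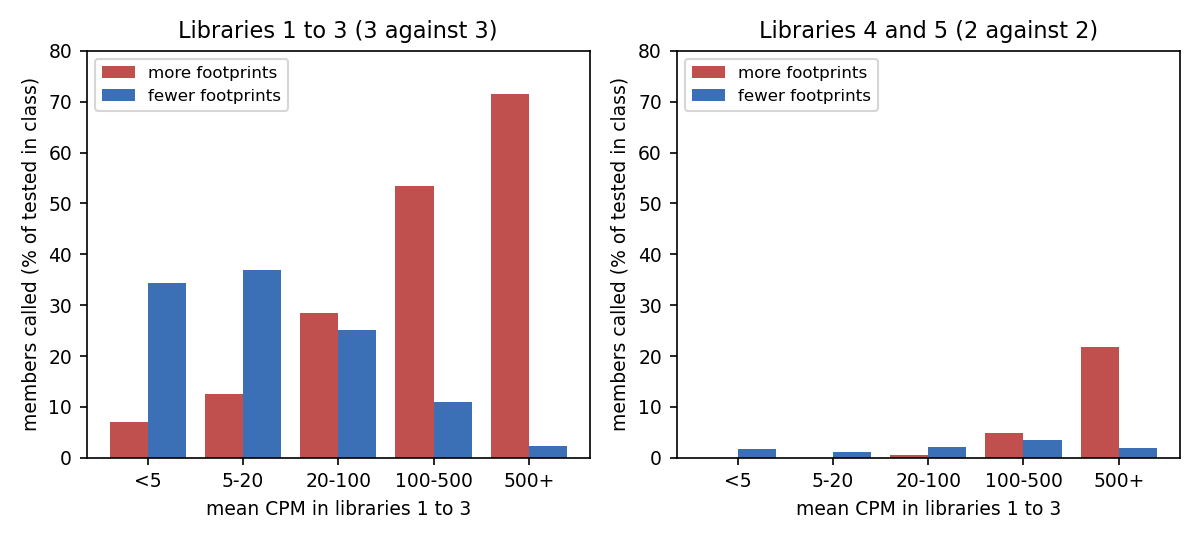
Percent of tested transcripts called with more or with fewer footprints than RNA (vertical axis) in each class of mean CPM (horizontal axis), in the deep set and the shallow set. The share with more footprints rises from 7.06% to 71.5% across the classes of the deep set and from 0 to 21.9% in the shallow set.

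The same pattern can be read inside each library without scaling libraries to each other. For this, classes were taken from the RNA-seq libraries of the other set, and the span was measured as the median log2(CPM + 1) of transcripts at 500 CPM or more minus that of transcripts at 5 to 20 CPM. Footprint libraries 1 to 3 had spans of 6.62, 6.31 and 6.30, and RNA-seq libraries 1 to 3 had 5.41, 5.40 and 5.74. All 3 footprint libraries lay above all 3 RNA-seq libraries, with means of 6.41 ± 0.18 and 5.51 ± 0.19 (SD, n = 3) and an exact two-sided permutation p of 0.1, the smallest that 3 against 3 can give. The shallow set gave spans of 7.09 and 6.70 in footprints against 6.08 and 5.85 in RNA-seq, a difference of 0.93 beside 0.89 in the deep set. The exact permutation p was 0.333, the smallest that 2 against 2 can give. Abundant transcripts thus stood further above scarce ones in pellet footprints than in homogenate RNA in all 5 vehicle libraries. Cycloheximide libraries had a mean span of 6.30 ± 0.23 (SD, n = 3) and a range of 6.04 to 6.49, which overlaps that of vehicle libraries 1 to 3. Salt libraries had 6.97 ± 0.17 (SD, n = 2), between vehicle libraries 4 and 5.

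**Figure D3:**
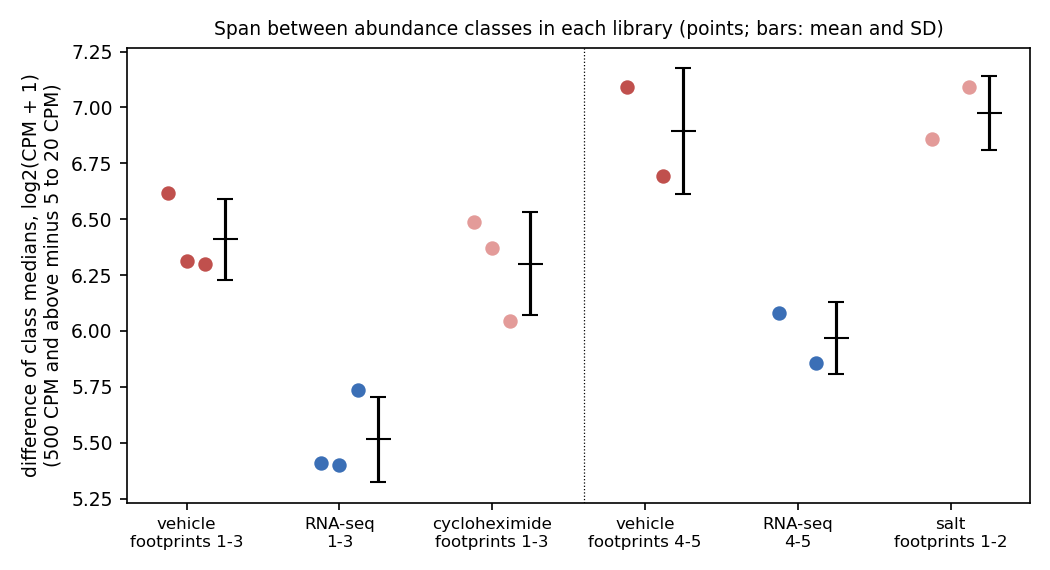
Difference in median log2(CPM + 1) between abundant transcripts (500 CPM or more) and scarce transcripts (5 to 20 CPM) in each library (vertical axis), grouped by library kind and set (horizontal axis), with classes taken from the RNA-seq of the other set and points standing for libraries. Vehicle footprint libraries lie between 6.30 and 7.09 and RNA-seq libraries between 5.40 and 6.08, and within each set the kinds do not overlap.

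Footprints were spread over fewer transcripts than RNA was. The most counted genes that together held 50% of a library's counts numbered 696, 603 and 623 in footprint libraries 1 to 3, against 1227, 1256 and 1176 in RNA-seq libraries 1 to 3. The means were 641 ± 49.0 and 1220 ± 40.5 (SD, n = 3), with an exact permutation p of 0.1, the smallest possible. The shallow set needed 640 and 523 genes against 943 and 1013, with an exact permutation p of 0.333, again the smallest possible. A single gene, ENSRNOG00000010711, took 5.17% and 13.5% of footprint libraries 4 and 5. Without it those libraries needed 734 and 782 genes, still fewer than their RNA-seq libraries.

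Transcripts called with more footprints in the deep set held 61.7%, 70.0% and 69.0% of the counts of footprint libraries 1 to 3 and 41.8%, 41.6% and 43.8% of RNA-seq libraries 1 to 3, values that chose them and are given as a description. In libraries that did not choose them, they held 56.9% and 63.3% of footprints against 42.7% and 41.3% of RNA. This difference of 18.1 percentage points had an exact permutation p of 0.333, the smallest possible, and was 14.1 points without ENSRNOG00000010711. The transcripts called with fewer footprints held 7.74% and 6.66% of footprints and 21.3% and 20.4% of RNA in the shallow set. Cycloheximide libraries gave 67.3% ± 4.26 (SD, n = 3) for the first of these lists and 5.31% ± 0.50 for the other, and salt libraries 61.6% ± 1.66 (SD, n = 2) and 7.00% ± 0.29. Wilson 95% intervals of each vehicle or RNA-seq share reached no more than 0.07 points to either side, which covers counting error only.

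**Figure D4:**
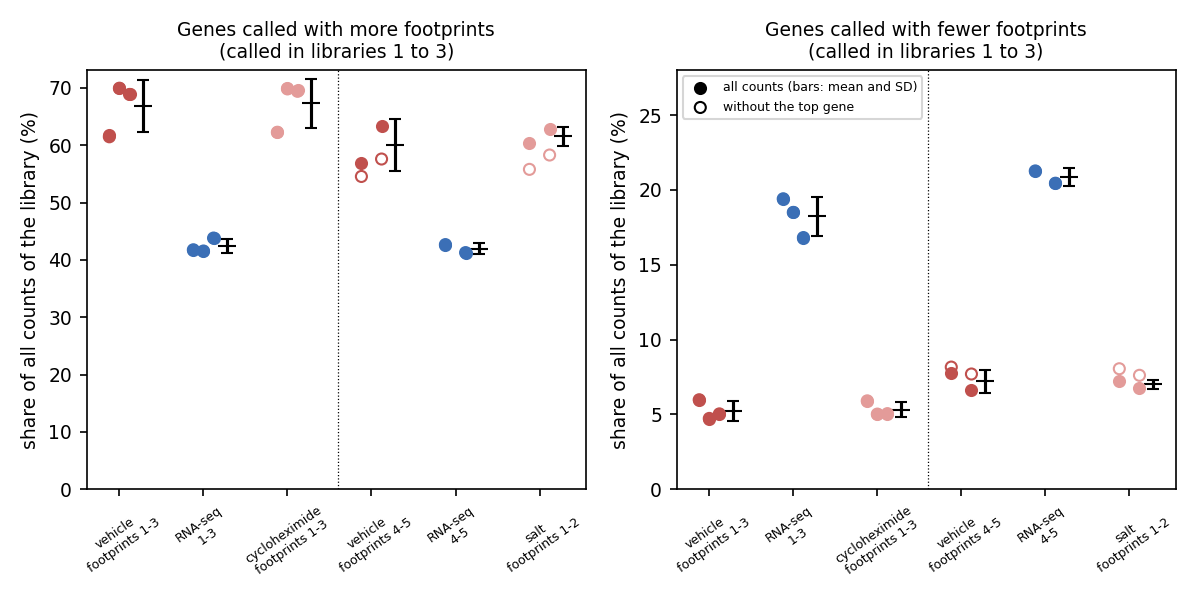
Percent of each library's counts (vertical axis) held by the transcripts called with more footprints (left) and with fewer footprints (right) in the deep set, by library kind and set (horizontal axis). Filled points are libraries with all counts, open points the same libraries without ENSRNOG00000010711, and bars the mean and SD of the filled points. The left-hand list holds 56.9% to 70.0% of vehicle footprints and 41.3% to 43.8% of RNA.

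The lists of most abundant genes overlapped only in part. Of the 100 genes with the most footprint CPM in the deep set, 67 were also among the 100 with the most RNA CPM, and in the shallow set 72 were. Among the top 500 the overlap was 356 and 350. Of the 100 genes with the most RNA in RNA-seq libraries 4 and 5, 51 had more and 16 had fewer footprints in the deep set. Of the 100 with the most footprints in libraries 4 and 5, 72 had more and 2 had fewer. Over all genes tested in the deep set, 22.0% had more and 29.3% had fewer. The footprint list was chosen by footprint level, the numerator of the ratio, though in other libraries, and is given as a description. The 4 most counted transcripts with more footprints had mean footprint levels of 8847 to 17875 CPM in the deep set and 3611 to 12737 CPM in the shallow set. The most counted of them had 17875 ± 2313 footprint CPM and 5852 ± 1568 RNA CPM (SD, n = 3) in the deep set, and edgeR's adjusted p was 0.000192 at a log2 ratio of 2.16 (SE 0.26). The shallow set gave 0.82 (adjusted p = 0.0264). The others of these 4 had log2 ratios of 0.55, 0.26 and 0.71 in the shallow set and were not called there (edgeR adjusted p = 0.0880, 0.393 and 0.0667). The most counted transcript with fewer footprints had 499 ± 59.3 and 1112 ± 180 CPM, a log2 ratio of -0.59 (SE 0.19, adjusted p = 0.0274), and in the shallow set the sign was opposite, at 0.52 (adjusted p = 0.150). The next on that list had 5.24 ± 4.86 CPM of footprints against 1441 ± 386 CPM of RNA, and its log2 ratios of -7.58 and -5.21 were called in both sets (adjusted p = 0.000154 and 2.38e-05).

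The direction seen in the deep set was compared with the shallow set, which shares no library with it. Of 6224 transcripts called in the deep set and tested in the shallow set, 4799 kept their direction, or 77.1%. For transcripts with more footprints the share was 73.0% (2380 of 3260), and for those with fewer 81.6% (2419 of 2964). The 77.1% and 81.6% include transcripts almost without footprints in both sets, which passed the filter through RNA and could only agree. Transcripts that were not called in the deep set had the same sign in 57.5% of cases. Across the 11524 transcripts tested in both sets the log2 ratios correlated with a Pearson r of 0.62 and a Spearman rho of 0.49. Those points share libraries, so the correlation is only a description across genes.

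Agreement among transcripts with more footprints differed between abundance classes, without a steady order. It was 72.2% of 54 below 5 CPM, 55.6% of 439 at 5 to 20 CPM and 66.7% of 1432 at 20 to 100 CPM, then 84.1% of 1152 and 94.5% of 183 in the upper classes. Transcripts not called in the deep set had the same sign in 61.3%, 57.2%, 55.9%, 59.1% and 74.6% of cases in the same classes, with positive and negative ratios pooled. Called transcripts of both directions together kept theirs in 78.1%, 72.7%, 74.5%, 85.0% and 94.2%. At 5 to 20 CPM the 55.6% lay below the uncalled share, but these are unlike measures, as the shallow-set median of that class was -0.38. In the highest class the uncalled share was high as well. Among transcripts with fewer footprints agreement ranged less, from 78.6% to 89.4% over the 5 classes. By size of the deep-set ratio, transcripts with fewer footprints kept their direction in 83.8% of cases (31 of 37) at log2 sizes under 0.5, 75.4% at 0.5 to 1, 81.7% at 1 to 2, 90.2% at 2 to 3 and 96.4% at 3 or more. At 3 or more, 161 of the 363 called had no more than 3 counts in each deep-set footprint library. Of all 188 such transcripts, 184 had 3 or fewer counts in each of footprint libraries 4 and 5. Any of these tested in the shallow set passed the filter through RNA, so their agreement was fixed. The 96.4% and the class shares above include them. For more footprints the shares were 58.0% (47 of 81), 68.1%, 78.9% and 80.4%, and at a size of 3 or more it was 6 of 8. Over all transcripts, libraries of a kind also differed more from each other in the shallow set, and the part of this in the agreement was not tested. The median SD of log2(CPM + 1) was 0.24 in footprint libraries 1 to 3 and 0.44 in footprint libraries 4 and 5, and for transcripts at 5 to 20 CPM it was 0.26 and 0.74. At 500 CPM and above the shallow set had the smaller SD, 0.17 against 0.27 in footprints and 0.10 against 0.17 in RNA-seq.

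**Figure D5:**
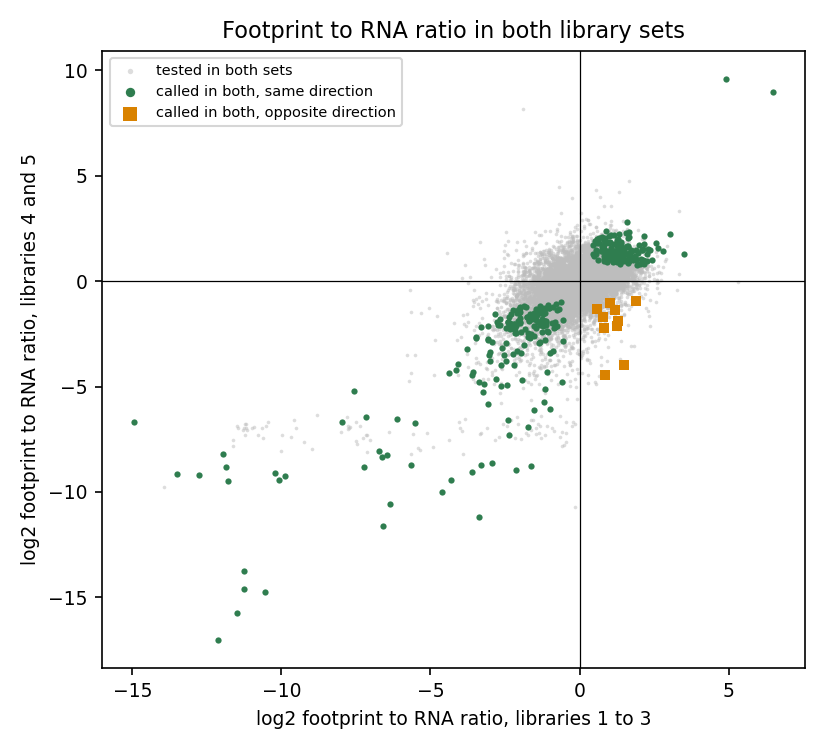
Log2 ratio of footprints to RNA in the shallow set (vertical axis) against the deep set (horizontal axis), with each point a transcript tested in both and colour giving the calls. Points gather along the rising diagonal, with a Pearson r of 0.62 over 11524 transcripts, and the points at the far lower left belong to transcripts with almost no footprints, whose fitted ratio depends on the small count added in the fit.

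Calls in both sets were made for 348 transcripts. Of these, 151 had more footprints in both, 187 had fewer in both, and 10 were called in opposite directions. Over the 11623 genes tested in both sets, 1.3% were called with more footprints in both, 1.67% with fewer in both and 0.086% in opposite directions. A further 75 were called in the shallow set only. The 151 had median log2 ratios of 1.32 and 1.33 in the deep and shallow sets and a median abundance of 307 CPM, against 26.2 CPM over the 13006 transcripts. Of them, 81 lay at 100 to 500 CPM and 51 at 500 CPM or more. The 187 had medians of -2.06 and -2.27 and a median abundance of 66.8 CPM. By class, 7 were below 5 CPM, 23 at 5 to 20, 90 at 20 to 100, 63 at 100 to 500 and 4 at 500 CPM or more. Below 5 and at 5 to 20 CPM their shallow-set medians were -9.22 and -8.63, sizes that depend on the small count added in the fit. Transcripts with such ratios passed the filter through RNA, so their shared direction is not counted as a result. The abundance of these groups is bounded by what the shallow set could call. Below 5 CPM it called 0 of 658 tested transcripts with more and 11 with fewer footprints. Over all 1842 transcripts of that class, tested or not, the median was 3.5 footprint counts in the shallow set. In the deep set calls with fewer footprints were most frequent below 20 CPM, with transcripts almost without footprints included.

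The number of calls in the shallow set moved with single libraries. It was 441 with all 4, 1585 without footprint library 4, 3014 without footprint library 5, 254 without RNA-seq library 4 and 417 without RNA-seq library 5, the lone library being assumed to vary like the pair of the other kind. The deep-set libraries were also thinned to the totals of footprint library 5 and RNA-seq library 4, the deeper of each kind in the shallow set. Of 11844 tested genes, 5769 were then called. With libraries 1 and 2 of each kind only, thinned to the totals of libraries 4 and 5 of that kind, 4109 of 11895 were called. Both comparisons were chosen after seeing the data. The common biological coefficient of variation was 0.27 in the deep set and 0.40 in the shallow set.

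Values that did not overlap between kinds were counted as well. In CPM, 1637 transcripts had all 3 deep-set footprint libraries above all 3 RNA-seq libraries and 6840 had all below, where 10.7% and 55.1% of all tested genes did so. Without overlap in the shallow set were 15.0% and 40.1% of all tested genes. In both sets at once 635 were above and 3744 below, and 591 were above in one set and below in the other. Over the 11623 genes tested in both sets these shares were 5.39%, 28.5% and 4.88%. With CPM scaled by TMM the numbers were 1706 above in both, 2240 below in both and 647 opposite, beside 14.4%, 16.8% and 5.27% of genes tested in both, so that the balance of the directions depended on the scaling.

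The ratio itself differed between the sets for some transcripts. A fit over the 10 libraries with a term for kind by set called 382 of 12996 tested transcripts at an adjusted p of 0.05, and 400 of all 16191 genes tested (2.47%). The ratio was higher in the shallow set for 72 transcripts and lower for 310, beside 0.488% and 1.98% of all genes tested. With total-count scaling 184 genes were called over all, 92 in each direction, so the excess of lower ratios was not seen under that scaling. The 310 had a median log2 ratio of 1.28 in the deep set and -0.69 in the shallow set, and 228 of them had been called with more footprints in the deep set. Their footprint CPM changed by a median log2 of -0.83 from the deep to the shallow set and their RNA CPM by 0.80. For the 72 these changes were 1.35 and -1.20. The transcripts were chosen by these same values, which are given only as a description. The share called grew from 1.58% of tested transcripts below 5 CPM to 6.64% at 500 CPM and above.

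The 10 transcripts called in opposite directions all had more footprints in the deep set and fewer in the shallow set. The one with the largest deep-set ratio had 979 ± 319 footprint CPM and 390 ± 17.9 RNA CPM (SD, n = 3) there, and 283 and 645 CPM as means of the shallow set. Its log2 ratios were 1.90 (adjusted p = 0.000393) and -0.94 (adjusted p = 0.0473) in the separate edgeR fits. Another had 14.5 and 7.55 CPM in the deep set but 15.3 and 286 CPM in the shallow set. For that transcript the footprint level was nearly equal in both sets, and the RNA level differed.

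A group of 188 transcripts, 1.45% of the 13006, had no more than 3 counts in each of footprint libraries 1 to 3. No transcript had so few in each of RNA-seq libraries 1 to 3. The 188 carried RNA at a median of 7.85 CPM and a range of 3.98 to 151 CPM, and 117 of them were in the class below 5 CPM, 58 at 5 to 20 and 13 at 20 to 100. Since they were chosen by their footprint counts and reached the 50-count average through their RNA, their lower ratio in the deep set was fixed by the choice and is not counted as a result. Counts of 3 or fewer were also found for 184 of them in footprint libraries 4 and 5, for 169 in the cycloheximide libraries and for 185 in the salt libraries. The other transcripts give the baseline at these depths. Below 5 CPM, 32.0% of the other 1725 transcripts also had 3 or fewer counts in each of footprint libraries 4 and 5, and 57.0% in each salt library, against 114 and 115 of the 117. At 5 to 20 CPM the baseline was 4.70% and 14.9% of 3658, against all 58. In the cycloheximide libraries, with totals like those of the deep set, the baseline was 0.203% of 12818 transcripts. In RNA-seq libraries 4 and 5, 108 of the 188 had more than 3 counts in both. These are transcripts seen in homogenate RNA and near the limit of detection in pellet footprints. A count of 3 corresponds to 0.06 to 0.09 CPM in footprint libraries 1 to 3 and to 1.58 and 1.07 CPM in footprint libraries 4 and 5.

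The most extreme transcripts were taken from those with the same direction in both sets and no overlap between kinds in either, at 10 CPM or more, of which 602 had more and 1563 fewer footprints. The 12 with the largest ratios ranged from 2.64 to 6.48 in log2 and from 20.2 to 3858 footprint CPM, and 6 of them were called in the shallow set. The 12 with the smallest ratios had 0 to 0.168 footprint CPM against 23.0 to 151 RNA CPM, and 10 had no more than 3 counts in each deep-set footprint library. Of these 12, 6 were called in the shallow set. Over all genes tested in the shallow set, 1.61% were called with more and 2.18% with fewer footprints. Shallow-set values helped to choose both groups of 12, so these calls are given only as a description.

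The largest ratio belonged to ENSRNOG00000004626. Its footprints stood at 22.5, 8.56 and 29.6 CPM in the deep set and at 33.8 and 14.6 CPM in the shallow set. RNA-seq libraries 1 to 3 gave 0.104, 0.845 and 0 CPM, and libraries 4 and 5 had no count. This transcript was thus almost absent from homogenate RNA while all 5 footprint libraries held it. Its log2 ratio in the deep set was 6.48 (SE 0.91), a fit in which it passed the filter on low counts through its footprints. Its footprints in the shallow set were at least 19.3-fold above what 3 counts in each RNA-seq library would give, or at least 9.64-fold if RNA-seq counts are halved.

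ENSRNOG00000010711 was the next. Its footprint level was 6316, 2294 and 2965 CPM in the deep set, then 51707 and 134965 CPM in the shallow set, while its RNA was 150, 212 and 202 CPM and then 141 and 151 CPM. The RNA-seq values lay close together in all 5 libraries, and the footprints of the shallow set were far above those of the deep set. The log2 ratio was 4.90 (SE 0.41, edgeR adjusted p = 5.29e-05) in the deep set and 9.59 (SE 0.68, adjusted p = 0.00514) in the shallow set, and the difference of 4.68 had an adjusted p of 0.00305. Cycloheximide libraries, sequenced at a depth like that of the deep set, had 3223, 3623 and 5263 CPM, and salt libraries had 104704 and 107284 CPM. High levels were therefore shared by all 4 footprint libraries at low depth, vehicle and salt.

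At the other end, ENSRNOG00000060518 had no footprint count in the deep set, against 262 and 158 CPM in the shallow set. Its RNA stood at 271, 91.7 and 91.4 CPM in the deep set and at 30135 and 20291 CPM in the shallow set. RNA was at least 2034-fold higher than 3 counts in each footprint library would give in the deep set, and at least 1230-fold without RNA-seq library 1. Its low-count filter there was passed through RNA alone, so no p-value is given. In the shallow set, where both kinds held counts, RNA was 120-fold higher (log2 ratio -6.67, SE 0.32, adjusted p = 1.2e-05). Both kinds of library held far more of this gene in the shallow set, and footprints stayed below RNA in each. ENSRNOG00000051885 had no count in any of the 5 vehicle footprint libraries, and 215, 45.8, 22.6, 12.6 and 3.53 CPM in RNA-seq libraries 1 to 5. RNA was at least 1269-fold above the same floor in the deep set, but at least 459-fold without RNA-seq library 1, which held the most. It too passed the filter through RNA alone, and its call was lost without any one of the 3 footprint libraries (edgeR adjusted p = 0.0830 to 0.0883). The filter on low counts left the gene untested in the shallow set.

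Just inside the rule, 139 genes with an average of 50 to 55 counts had a median log2 ratio of -0.77, with 5 called with more and 46 with fewer footprints. Just outside it, 144 genes with 45 to 50 counts had a median of -1.46, with 2 and 79. Of these genes 138 inside and 143 outside were tested. Over all genes tested in the deep set, 22.0% were called with more and 29.3% with fewer footprints.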

How the data were processed

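The deposited table holds whole-number read counts per Ensembl gene ID for 15 libraries, which the authors deposited without normalization. Per the submitters' processing notes, cutadapt 2.8, Bowtie2 2.3.5, STAR 2.7.3a, CASAVA, deepTools and the build Rnor_6.0 were used, with no role given. The counting program, annotation and strand setting are not given in the sources used here, so overlapping, antisense and near-identical genes may share reads. Each column was matched to a sample by its title. In 6 genes the cells of libraries 1 to 3 were empty, and these genes were left out, so that totals run over 22044 genes.

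Counts were tested in R 4.3.3 with edgeR 4.0.16 (glmQLFit, robust, and glmQLFTest), TMM factors and filterByExpr, without a replicate block. The deep set, the shallow set and the kind by set interaction were fitted separately, and p-values were adjusted by Benjamini-Hochberg over all genes tested, with calls at 0.05. The SE is the absolute log2 ratio divided by the square root of F. CPM uses the library total without TMM factors. limma 3.58.1, DESeq2 1.42.0, Python 3.11.15, numpy 2.4.6, pandas 2.3.3 and scipy 1.17.1 served the alternatives and summaries, and the test script was tested on simulated data. Permutation tests are exact and two-sided. The total behind each library limits its precision: 3 counts equal 0.0559 to 0.156 CPM in the deep set and 1.07 to 1.58 CPM in the shallow set.

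Genes were to be named where called in the deep set, at 10 CPM or more, with the same direction and no overlap in both sets: the 12 largest and 12 smallest ratios, the 4 most counted and the 4 most opposite in each direction, and examples from gene lists. The rule asked for a symbol. Since 0 IDs matched a symbol in the RefSeq table, 2 IDs per direction are printed, the others appear without a name, and the gene lists and cell type markers were not used. The transcripts, classes and lists were chosen with earlier results of these data known. Alternatives were other scalings, no filter, DESeq2, limma-voom, halved RNA-seq counts, a replicate block, a fit over the 13006 genes only, other classes and each library left out.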

Additional observations from a re-analysis of the deposited data

Results flagged for a closer look

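The ratio of footprints to RNA differed between the deep and the shallow set for 400 genes at an adjusted p of 0.05 in edgeR's interaction test, 382 of them among the 13006 described. For ENSRNOG00000010711 the log2 ratio was 4.68 higher in the shallow set (SE 0.61, edgeR adjusted p = 0.00305), with footprints of 51707 and 134965 CPM there against 2294 to 6316 CPM in the deep set. For ENSRNOG00000060518 the fitted difference was 7.57, a value that depends on the small count added in the fit because its deep-set footprints were all 0. No p-value is given for it, for the same reason. Its RNA was 20291 and 30135 CPM in the shallow set and 91.4 to 271 CPM in the deep set. Of the 6 genes whose cells were empty in libraries 1 to 3, 4 had more than 3 counts in a library of the shallow set, with a largest count of 81, and no comparison used them.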

How the results depend on the processing

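The deep-set count of 7869 calls stayed within 1.5 times under 17 of 18 alternatives. It was 6254 to 9434 with each library left out, 7088 with the replicate block and 4109 with libraries 1 and 2 only at shallow-set depth. The shallow-set count of 441 was 1231 without the filter on low counts, 974 with DESeq2, 853 with limma-voom and 254 to 3014 with each library left out. The replicate block gave 838 calls there. Same-numbered deviations of footprint and RNA-seq libraries correlated at -0.19, 0.07 and -0.11 in the deep set and -0.05 in the shallow set. In the shallow set the deviations of 2 libraries mirror each other, so both numbers give the same value. With so few libraries these correlations cannot settle whether same-numbered libraries were paired. The interaction count of 400 was 253 with upper-quartile factors (96 higher, 157 lower), 184 with total counts, 269 with DESeq2's size factors in edgeR (94 and 175) and 1600 with DESeq2 (720 and 880), beside 79 and 321. In the shallow set 57.3% of limma-voom calls had more footprints, and 29.1% without RNA-seq library 4. Agreement was 76.3% to 79.2% over 10 alternatives, 79.2% with total counts and 78.3% with a fit over the 13006 genes only.

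Class medians moved with the scaling and, apart from the 20 to 100 CPM class, kept their sign. From the lowest to the highest class, upper-quartile factors gave -0.75, -0.50, -0.053, 0.47 and 0.94, and total counts -1.19, -0.94, -0.49, 0.025 and 0.49. From 5 CPM upward, DESeq2's size factors in edgeR gave -0.30, 0.15, 0.67 and 1.14, as DESeq2 did (-0.30, 0.15, 0.67 and 1.14). Classes from RNA-seq libraries 4 and 5 gave -0.42, 0.47 and 0.66 in the lowest and the 2 highest classes. The cause was not tested beyond the scaling itself. All 4 named genes kept their direction under each alternative that gave a value. ENSRNOG00000010711 in the shallow set missed the threshold under 2 of 13 (adjusted p up to 0.154), and in the deep set ENSRNOG00000051885 under 4 of 18 (up to 0.0883). The shallow set had the fewest counts per transcript below 5 CPM, with a median of 3.5 footprint counts. The part of depth in its calls was not tested by class.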
